A study of Drosophila melanogaster with 80 samples.

Results

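The comparison set adult males of Drosophila melanogaster against adult females at the warm end of a temperature cycle, and it used 16 of the 80 libraries of the study: 8 of fluctuating males and 8 of fluctuating females, all sampled at the high point. Each library was made from whole animals that had lived for up to 13 days as adults under a cycle around a mean of 19 °C, 8 °C up to the high point of 27 °C and 8 °C down to the low point of 11 °C. In each sex 4 libraries were taken after 6 cycles and 4 after 12 cycles, and cycle number was a covariate. The strain, the mating status of the flies and how many went into a library are not given in the labels used here. Males and females kept at a constant 19 °C and sampled at the same high point (8 libraries each), and fluctuating males and females of the cool point at 11 °C (8 each), served to ask whether a sex difference had another size elsewhere, and 16 larval libraries served to pick genes that are not carried by adult gonads alone.

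Sex in the fly is decided in each cell by a splicing cascade. In females, with a pair of X chromosomes, Sex-lethal (Sxl) protein directs female splicing of transformer (tra), which in turn shapes the doublesex (dsx) and fruitless (fru) transcripts; in males Sxl protein is missing, msl-2 is translated, and a complex that carries the roX RNAs raises transcription along the single X chromosome. Downstream of dsx, the fat body of females makes yolk proteins, and the oenocytes, cells under the cuticle, make different long-chain hydrocarbons in each sex, which serve as pheromones. Heat shock proteins, which refold damaged proteins, are induced by warmth in most tissues, and some are also made without heat in the ovary.

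Total deposited counts ran from 87.1 to 122.6 M in males (median 99.6; M stands for 1000000 counts) and from 100.6 to 124.0 M in females (median 110.4). A gene was detected with at least 1 count in 16142 to 16347 cases per male library and in 13848 to 14260 per female library. Levels below are counts per 1000000 (CPM) after TMM scaling, a method that evens out a weighted, trimmed mean of log ratios between libraries. The median gene can still differ between the sexes. Differences are log2 fold changes of males over females with their standard error (SE), and a gene was called where the Benjamini-Hochberg adjusted p of edgeR's quasi-likelihood test over all 15550 genes tested was under 0.05. Of these, 8524 genes were higher in males (54.8%) and 5812 were higher in females (37.4%), so that 92.2% of all genes tested were called. A count of called members in a list is therefore read against this background, and levels with their size carry more than the call itself. Full separation was common too. All males lay above all females in 6925 genes (44.5%), and all females above all males in 5185 (33.3%). Replicate numbers in the labels name separate samples, which the design text calls biological replicates.

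The labels of sex held in every one of the 16 libraries. Before scaling, the yolk gene Yp1 had 2.63, 9.71 and 25.7 CPM in males (lowest, median, highest) and 5962, 8839 and 11770 CPM in females. The seminal fluid gene Acp36DE had 357.5, 666 and 927 CPM in males against 0.129, 0.625 and 1.38 CPM in females, and the sperm gene Mst87F had 465, 508 and 727 CPM in males against 0.0887, 0.328 and 0.521 CPM in females. Transcripts typical of the other sex were thus counted in all libraries at these levels. Their source and their part in the results for genes near 0 were not tested. Of the male libraries, replicate 1 stood apart most often: it was the lowest male for several genes, Sxl, fru, Sh, Clk and ftz-f1 among them. In the wider fit used for the comparisons with other conditions, the constant low-point male library of replicate 2 held 4471 CPM of Yp1 and 893 CPM of the eggshell gene Vm26Aa, against 0.21 to 64.9 CPM and 0 to 4.17 CPM in the 31 other adult male libraries; no contrast below takes values from it, but it enters that fit's estimate of the spread.

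Genes of gonads and glands differed by large amounts and are given here only as composition. Of 60 ovarian germline genes 56 were higher in females and 3 in males (median log2 difference -4.36), and all 26 eggshell genes tested were higher in females (median -8.95). All 74 testis genes and all 73 accessory gland and ejaculatory genes were higher in males (medians 10.09 and 10.01). The median of all genes tested was 0.75. In bulk samples fewer cells of a type and less RNA per cell cannot be told apart, and the share of a library taken by one tissue is missing from the others. Before scaling, the ovarian germline genes summed to a median of 2510 CPM in males and 21704 CPM in females. The part of the ovary in the genes lower in males below was not tested. Among these are msl-1, Hsf, cyc, dco, Prip, E23 and ftz-f1. A second scaling set the libraries equal on the summed counts of 89 genes of the muscle, neuron and photoreceptor lists. It moved every log2 difference by a median of -1.23, to a median of -0.49 over all genes, and gave 5431 genes higher in males (34.9%) and 7989 higher in females (51.4%). Calls that hold their direction under both scalings number 5431 higher in males (34.9%) and 5812 higher in females (37.4%), and 1297 genes (8.34%) were called in opposite directions. Since the panel moves the differences down, a gene lower in males with TMM stays lower by construction. Holding with both scalings is thus a check only for genes higher in males. Values with the second scaling are named below as those of the somatic panel. A gene higher in males by less than about 1.23 with TMM turns to higher in females with the panel.

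Dosage compensation RNAs had high levels in males. The non-coding RNA lncRNA:roX1 (FBgn0019661, chromosome X, 3857230 to 3862697, minus strand, BDGP6.54), which guides the male complex to the X, had 287, 309 and 411 CPM in males against 0.332, 0.777 and 2.48 CPM in females (lowest, median and highest of 8 here and below). All males lay above all females, with a log2 difference of 8.50 ± 0.29 (SE, adjusted p = 1.99e-14) and 7.25 with the somatic panel. Its partner lncRNA:roX2 was much scarcer, at 9.69, 10.2 and 13.3 CPM in males and 0, 0.0631 and 0.165 CPM in females, a log2 difference of 7.12 ± 0.37 (adjusted p = 6.04e-12). The transcript of msl-2 (FBgn0005616, chromosome 2L), whose translation Sxl blocks in females, had 21.6, 28.6 and 31.9 CPM in males and 8.21, 9.13 and 10.6 CPM in females. It was higher in males by 1.6 ± 0.08 (adjusted p = 6.78e-12), and by 0.36 with the panel (adjusted p = 0.00032). Other subunits were lower in males: msl-1, the scaffold of the complex, had 20.5, 31.1 and 33.5 CPM in males and 237, 267 and 301 CPM in females (-3.17 ± 0.08, and -4.41 with the panel). In all, 3 of 9 genes of the list were higher in males and 5 in females with TMM, and 3 and 6 with the panel.

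In the sex determination cascade most transcripts were more abundant in females. Of 15 genes, 3 were higher in males and 10 in females (median -0.92), and with the panel 1 and 13. Sxl itself, whose male and female transcripts both count here, had 45.2, 88.2 and 93.5 CPM in males and 149, 186 and 206 CPM in females, without overlap (-1.12 ± 0.12, adjusted p = 1.8e-07). For tra the gap was small, with 7.44, 8.37 and 9.85 CPM in males against 11.3, 12.1 and 15 CPM in females (-0.56 ± 0.07, adjusted p = 1.67e-06). The RNA-binding splicing factor snf (-1.75 ± 0.06), and ix (-2.0 ± 0.08), which encodes the partner of female dsx protein, were also lower in males. At the end of the cascade dsx (FBgn0000504, chromosome 3R, 7924323 to 7967408), the transcription factor that sets most somatic sex differences, had 73.5, 105 and 128 CPM in males and 19.2, 23.6 and 31.1 CPM in females. That is a log2 difference of 2.11 ± 0.08 (adjusted p = 9.76e-14), and 0.87 with the panel (adjusted p = 7.83e-10). The courtship gene fru had 28.2, 38.5 and 43.6 CPM in males and 18.5, 21.6 and 24.9 CPM in females. Its difference of 0.83 ± 0.08 with TMM turned to -0.41 with the panel (adjusted p = 7.45e-05), so its direction depends on the scaling. Counts per gene do not separate the sex-specific isoforms.

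Fat body and head genes that respond to sex gave large somatic contrasts. The yolk proteins, made in the female fat body and in the follicle cells of the ovary, were lower in males by 9.99 ± 0.47 for Yp1 (8.89 CPM median in males, 9738 in females), by 10.12 ± 0.49 for Yp2 and by 8.62 ± 0.29 for Yp3 on the log2 scale. The female fat body peptide fit, which acts on feeding, was far less distinct, at 16.63, 41.6 and 56.2 CPM in males and 68.9, 123 and 243 CPM in females (-1.73 ± 0.26, adjusted p = 9.35e-06). Among genes higher in males, the odorant-binding protein gene Obp99b (FBgn0039685, chromosome 3R, 29716254 to 29716896), known as a male fat body gene, had 243, 419 and 751 CPM in males and 2.60, 5.57 and 42.5 CPM in females. The highest female, replicate 5, stood alone. The difference was 5.52 ± 0.61 (adjusted p = 2.01e-07), and 4.29 with the panel. The P450 gene Cyp4d21, also called sxe1 and active in the male head fat body, had 39.0, 51.9 and 66.8 CPM in males and 0.573, 1.09 and 1.83 CPM in females (5.45 ± 0.24, adjusted p = 5.2e-13). The lipase-like gene sxe2 had 66.0, 72.2 and 86.5 CPM in males and 2.33, 3.21 and 3.83 CPM in females (4.57 ± 0.12, adjusted p = 4.51e-16). Against these, Obp99a was lower in males, with 38.4, 45.3 and 61.8 CPM in males and 216, 316 and 373 CPM in females (-2.72 ± 0.14, adjusted p = 3.92e-12). The larval storage protein gene Lsp1alpha was at low level but distinct, at 3.67, 6.10 and 19.7 CPM in males and 0, 0.110 and 1.11 CPM in females (4.92 ± 0.74, adjusted p = 7.84e-06). The feeding gene to (takeout) had 32.3, 37.9 and 43.2 CPM in males and 13.9, 15.2 and 17.6 CPM in females. Its difference of 1.26 ± 0.07 fell to 0.02 with the panel (adjusted p = 0.783). Of 16 genes in the list, 10 were higher in males and 5 in females with TMM, and 4 and 5 with the panel.

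**Figure D1:**
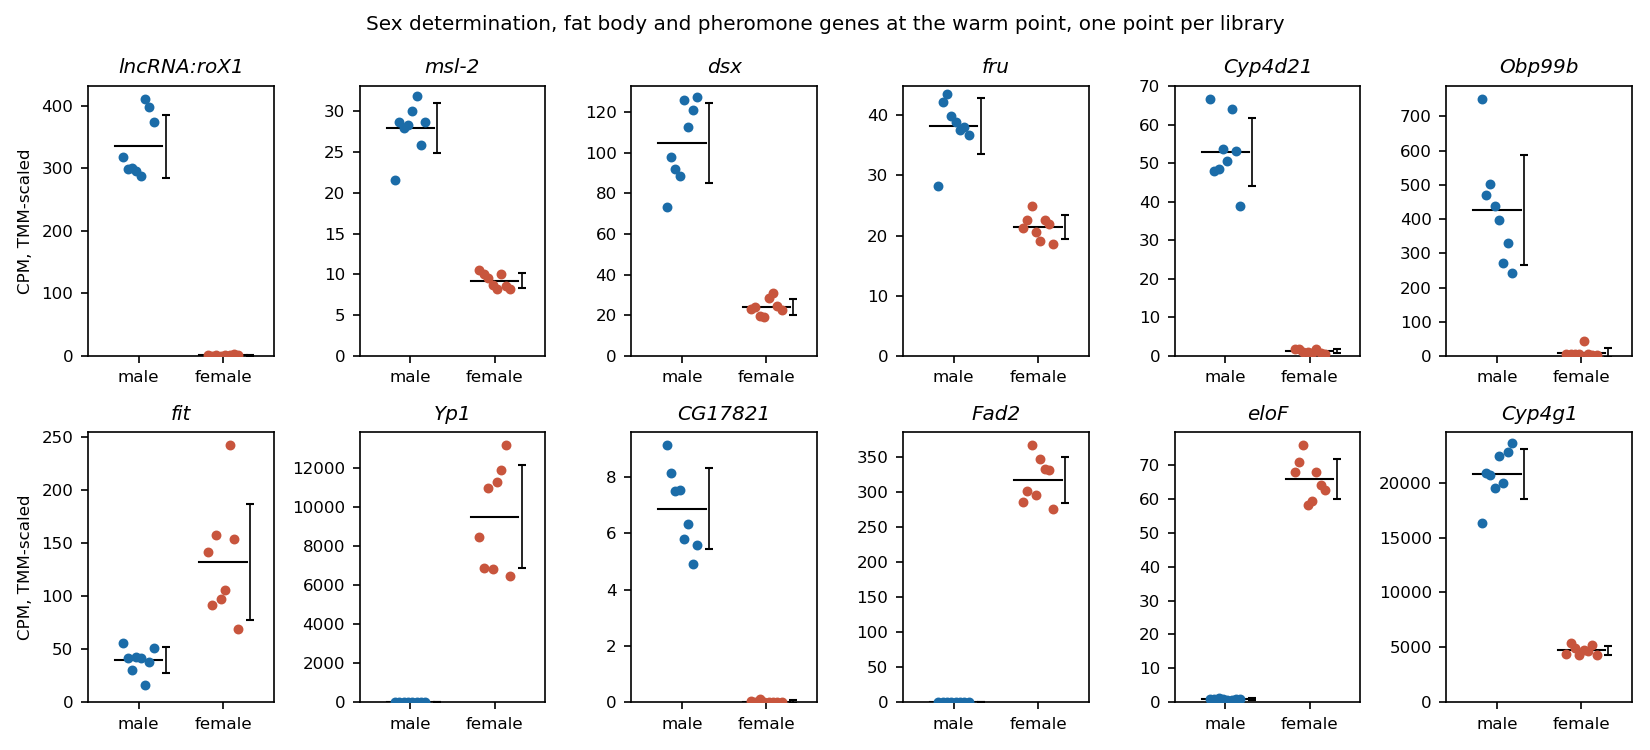
Levels of 12 genes of sex determination, dosage compensation, fat body and pheromone synthesis at the warm point, 1 panel a gene. Each point is 1 of 8 libraries of males (left) or females (right), the y axis is CPM after TMM scaling on a linear axis, and the line and bar are the mean and SD. The points of males and females do not overlap in any panel, and the single high female of Obp99b at 42.5 CPM is set apart from the others.

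Pheromone synthesis divided into male and female enzymes. The desaturase gene Fad2 (FBgn0029172, chromosome 3L, 11023535 to 11024846; also called desatF), which makes the dienes of female cuticle, had 0.143, 0.307 and 0.609 CPM in males and 275, 317 and 366 CPM in females, lower in males by 9.95 ± 0.23 on the log2 scale (adjusted p = 1.57e-16). The elongase gene eloF, which lengthens those dienes, had 0.768, 0.996 and 1.34 CPM in males and 58, 65.9 and 75.7 CPM in females (-6.03 ± 0.11, adjusted p = 1.11e-17). Both were nearly off in males. An elongase-family gene, CG17821, showed the reverse at low level, with 4.93, 6.92 and 9.13 CPM in males and 0, 0 and 0.13 CPM in females (8.24 ± 0.53, adjusted p = 1.32e-10). The oenocyte decarbonylase gene Cyp4g1 (FBgn0010019, chromosome X, 467057 to 469335), which makes the final hydrocarbons in both sexes, was among the most abundant transcripts of these flies, at 16358, 20763 and 23590 CPM in males and 4289, 4705 and 5363 CPM in females. It was higher in males by 2.13 ± 0.08 (adjusted p = 3.53e-14), and by 0.89 with the panel. Desat1, the desaturase shared by both sexes, had 2140, 2555 and 3650 CPM in males and 1191, 1338 and 1537 CPM in females, a difference of 0.95 ± 0.09 that turned to -0.28 with the panel. Over the list, 17 of 22 genes were higher in males and 5 in females (median 0.90), and with the panel 9 and 12.

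The heat shock genes did not share 1 direction between the sexes at 27 °C. Of 32 genes, 16 were higher in males and 15 in females (median 0.31), and with the panel 8 and 20. Among the inducible Hsp70 genes, Hsp70Aa (FBgn0013275, chromosome 3R, 11954163 to 11956544) had 18.8, 37.1 and 42.5 CPM in males and 58.2, 74.0 and 97.7 CPM in females (-1.27 ± 0.18, adjusted p = 3.78e-06). Its near-identical neighbour Hsp70Ab had 20.8, 40.4 and 46.5 CPM in males and 62.5, 81.4 and 106 CPM in females (-1.27 ± 0.18). The copies of the other cluster overlapped between the sexes: Hsp70Bb had 9.07, 15.9 and 35.0 CPM in males and 5.84, 10.01 and 16.55 CPM in females, with a difference of 0.68 ± 0.27 (adjusted p = 0.0248) that was -0.56 with the panel (adjusted p = 0.0586), and that lost its call without male 4, male 6 or female 6. Reads may be split among such copies, so the contrast between the clusters is uncertain. The related Hsp68 gene was higher in males, at 41.7, 47.7 and 56.7 CPM in males and 10.7, 14.1 and 17.8 CPM in females (1.80 ± 0.12, adjusted p = 1.58e-10), and it stayed higher with the panel (0.57, adjusted p = 0.000407).

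Small heat shock genes of the same cluster on chromosome 3L went in opposite directions. Hsp26 (FBgn0001225, 9376418 to 9377427) had 65.2, 76.3 and 88.7 CPM in males and 844, 909 and 1019 CPM in females (-3.59 ± 0.08, adjusted p = 4.79e-17). Hsp27 (FBgn0001226, 9384063 to 9385694) had 73.2, 83.9 and 101 CPM in males and 967, 1079.7 and 1242 CPM in females (-3.68 ± 0.07, adjusted p = 2.25e-17). Both are known to be transcribed in the ovary without heat, and the germline gene vas, a marker of that tissue, had 3.01, 4.12 and 4.70 CPM in males and 99.7, 118 and 143 CPM in females before scaling. Its part in their difference was not tested. Hsp23 in contrast had 25.8, 30.5 and 38.5 CPM in males and 6.83, 8.09 and 11.2 CPM in females (1.90 ± 0.09, adjusted p = 3.73e-12; 0.66 with the panel). The mitochondrial Hsp22 overlapped, at 58.8, 74.9 and 128 CPM in males and 42.4, 49.8 and 101 CPM in females, and its difference of 0.55 ± 0.13 turned to -0.69 with the panel. The muscle chaperone l(2)efl had 107, 146 and 185 CPM in males and 48.9, 56.3 and 65.9 CPM in females (1.32 ± 0.09, and 0.09 with the panel, adjusted p = 0.331).

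Among general chaperones some genes were lower in males, and so was the gene of their regulator. Hsp83, the fly Hsp90 and another gene of the ovary, had 1153, 1283 and 1535 CPM in males and 3315, 3465 and 3631 CPM in females (-1.42 ± 0.05, adjusted p = 4.98e-14). The heat shock transcription factor gene Hsf had 38.8, 47.4 and 50.9 CPM in males and 181, 202 and 232 CPM in females (-2.12 ± 0.06, adjusted p = 6.31e-16). The Hsp70 partner DnaJ-1 had 182, 210 and 228 CPM in males and 305, 336 and 384 CPM in females (-0.70 ± 0.06). CG1416, which encodes an Ahsa1-type co-chaperone of Hsp90, had 77.3, 89.5 and 101 CPM in males and 201, 211 and 220 CPM in females (-1.23 ± 0.04). Hsc70-1, of the Hsp70 family, went the other way, with 155, 184 and 215 CPM in males and 21.8, 27.7 and 35.8 CPM in females (2.72 ± 0.06, and 1.48 with the panel). The members with the largest male levels over females were Hsp60B, with 281, 331 and 368 CPM in males and 0.0805, 0.234 and 0.46 CPM in females, and Hsp60C, with 433, 523 and 641 CPM in males and 0.222, 0.425 and 0.553 CPM in females. Both encode chaperonins that act in sperm formation. Their differences were 10.42 ± 0.18 and 10.29 ± 0.13. Hsc70-2, a further testis gene, followed at 4.37 ± 0.19, with 156, 187 and 214 CPM in males and 4.93, 8.04 and 13.9 CPM in females.

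**Figure D2:**
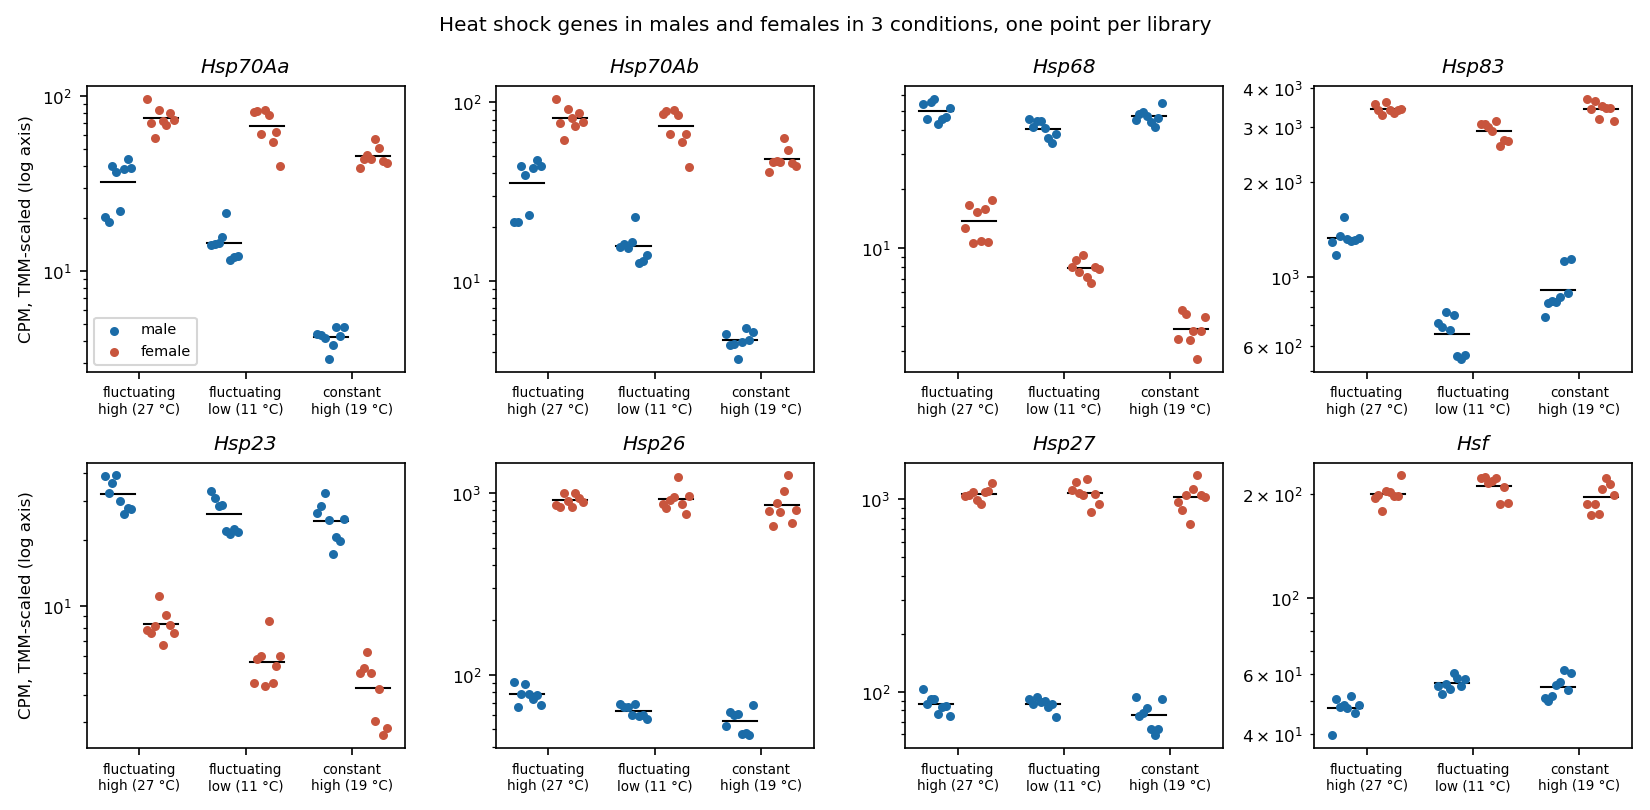
Levels of 8 heat shock genes in males (left of each pair) and females at the fluctuating high point, the fluctuating low point and the constant high point. Each point is 1 of 8 libraries, the y axis is CPM with TMM factors from the fit of 64 adult libraries, on a log axis, and lines are means. Hsp70Aa and Hsp70Ab in males run from the lowest levels at constant temperature to the highest at the warm point, while Hsp26 and Hsp27 keep a wide gap between the sexes in all conditions.

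Chaperones of the endoplasmic reticulum (ER), where secreted proteins fold, were lower in males or close to equal. Of 22 genes 4 were higher in males and 14 in females (median -0.55), and with the panel none was higher in males and all 22 were higher in females. The nucleotide exchange factor Sil1 had 10.7, 12.2 and 14 CPM in males and 35.5, 38.2 and 42.6 CPM in females (-1.62 ± 0.06). The stress kinase gene PEK had 38.0, 48.7 and 52.1 CPM in males and 117, 138 and 149 CPM in females (-1.52 ± 0.06). The translocon subunit Sec61alpha had 161, 180 and 211 CPM in males and 386, 433 and 469 CPM in females (-1.22 ± 0.05). No male reached the lowest female in any of these, as in 33.3% of all genes tested.

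Stress-induced secreted peptides of the Turandot family went the other way. All 8 genes of the Turandot and cold-response list were higher in males (median 2.01), 6 of them also with the panel. TotA (FBgn0028396, chromosome 3R, 20871036 to 20871700) had 100, 124 and 485 CPM in males and 13.7, 24 and 46.5 CPM in females (2.73 ± 0.37, adjusted p = 2.6e-06; 1.5 with the panel). The highest male, replicate 5, was far above the rest, yet the lowest male was above the highest female. TotX had 7.47, 19.6 and 26.3 CPM in males and 2.34, 3.52 and 5.59 CPM in females (2.39 ± 0.24). Fst (Frost), a gene induced during recovery from cold, had 14, 31.0 and 183 CPM in males and 6.59, 9.43 and 12.6 CPM in females (2.05 ± 0.40, adjusted p = 0.000128; 0.83 with the panel, adjusted p = 0.0469). Male replicate 6 gave that highest value.

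Immune genes separated into steady male levels for some peptides and wide scatter for others. Of 55 genes, 34 were higher in males and 6 in females (median 1.17), and with the panel 9 and 11. The cecropin gene CecA1 (FBgn0000276, chromosome 3R, 30210874 to 30211273), an antibacterial peptide also known from the male reproductive tract, had 18.6, 25.1 and 34.5 CPM in males and 0.0554, 0.149 and 1.63 CPM in females (5.68 ± 0.65, adjusted p = 2.95e-07). BomS6, a Toll-induced peptide, had 30.05, 62.7 and 75.4 CPM in males and 7.39, 9.47 and 30.4 CPM in females (2.14 ± 0.29). Drsl5, a drosomycin-like gene, had 97.6, 143 and 243 CPM in males and 17.5, 38.5 and 57.2 CPM in females (2.09 ± 0.17). The antifungal gene Drs itself, known also from the sperm storage organs of females, was lower in males, with 46.2, 59.6 and 171 CPM in males and 235, 328 and 476 CPM in females (-2.09 ± 0.26, adjusted p = 9.61e-07). Other peptide genes scattered within both sexes: Dro had 2.15, 16.9 and 189 CPM in males and 1.15, 3.52 and 113 CPM in females (-0.15 ± 1.14, adjusted p = 0.902). DptA had 1.82, 8.31 and 126 CPM in males and 0.185, 2.30 and 91.1 CPM in females (0.06 ± 1.17, adjusted p = 0.962). AttA and Mtk likewise did not pass the test (0.76 ± 0.81 and -0.51 ± 1.0). Single libraries carried the high values, which leaves differences of several log2 units within the error.

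Among lysozymes, which digest bacteria in the gut, 4 of 6 were higher in males and none in females with TMM, and 1 and 2 with the panel. LysE had 24.8, 29.0 and 36.5 CPM in males and 0.667, 1.68 and 3.15 CPM in females (4.09 ± 0.26, adjusted p = 9.22e-11; 2.86 with the panel), while LysP overlapped at 42.5, 71.8 and 103 CPM in males and 38.9, 44.5 and 49.9 CPM in females, and its 0.76 ± 0.13 turned to -0.48 with the panel. Hemocyte markers gave 13 of 20 higher in males and 5 in females, against none and 11 with the panel, so these data set no direction for blood cells. The prophenoloxidase genes PPO1 and PPO2, enzymes of melanin formation, differed by 1.27 ± 0.13 and 1.23 ± 0.11 with TMM and by 0.03 and 0.00 with the panel. The transcriptional cofactor gene ush was lower in males with TMM (-1.84 ± 0.08), a direction that the panel cannot turn.

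Genes of head and muscle were higher in males with TMM almost throughout, with list medians of 1.31 to 1.76. These 3 lists make up the panel, whose scaling takes out a shift common to all genes, at a median of -1.23. List medians with the panel were 0.52 for neuron, 0.29 for photoreceptor and 0.07 for muscle genes. Of the 26 neuron genes 25 were higher in males and none in females (median 1.76), of 30 photoreceptor genes 27 and 1 (median 1.52), and of 33 muscle genes 30 and 2 (median 1.31). With the panel, 20 neuron, 18 photoreceptor and 11 muscle genes were still higher in males, and 2, 7 and 8 were higher in females. The counts of these same genes set the panel, so these calls are no separate result. Muscle genes were the largest part, with a median sum of 18832 CPM in males before scaling. Photoreceptor genes summed to 7344 CPM and neuron genes to 2646 CPM. Panel values of these lists are therefore relative to a sum led by muscle. The potassium channel gene Sh had 73.1, 129 and 143 CPM in males and 11.1, 31.9 and 45.6 CPM in females (2.07 ± 0.22). The gene ple (pale), which encodes the first enzyme of dopamine synthesis and also serves cuticle tanning, had 37.5, 54.7 and 81.7 CPM in males and 11.8, 12.7 and 17.5 CPM in females (2.02 ± 0.16). For vision, ninaA, the chaperone of the main rhodopsin, had 24.6, 29.8 and 39.5 CPM in males and 6.94, 8.85 and 10.7 CPM in females (1.80 ± 0.09, and 0.57 with the panel). In muscle the actin gene Act87E had 317, 351 and 397 CPM in males and 59.2, 78.3 and 108 CPM in females (2.15 ± 0.08, and 0.91 with the panel). The actin regulator flr was lower in males, with 41.4, 46.2 and 53.1 CPM in males and 190, 207 and 217 CPM in females (-2.13 ± 0.04).

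**Figure D3:**
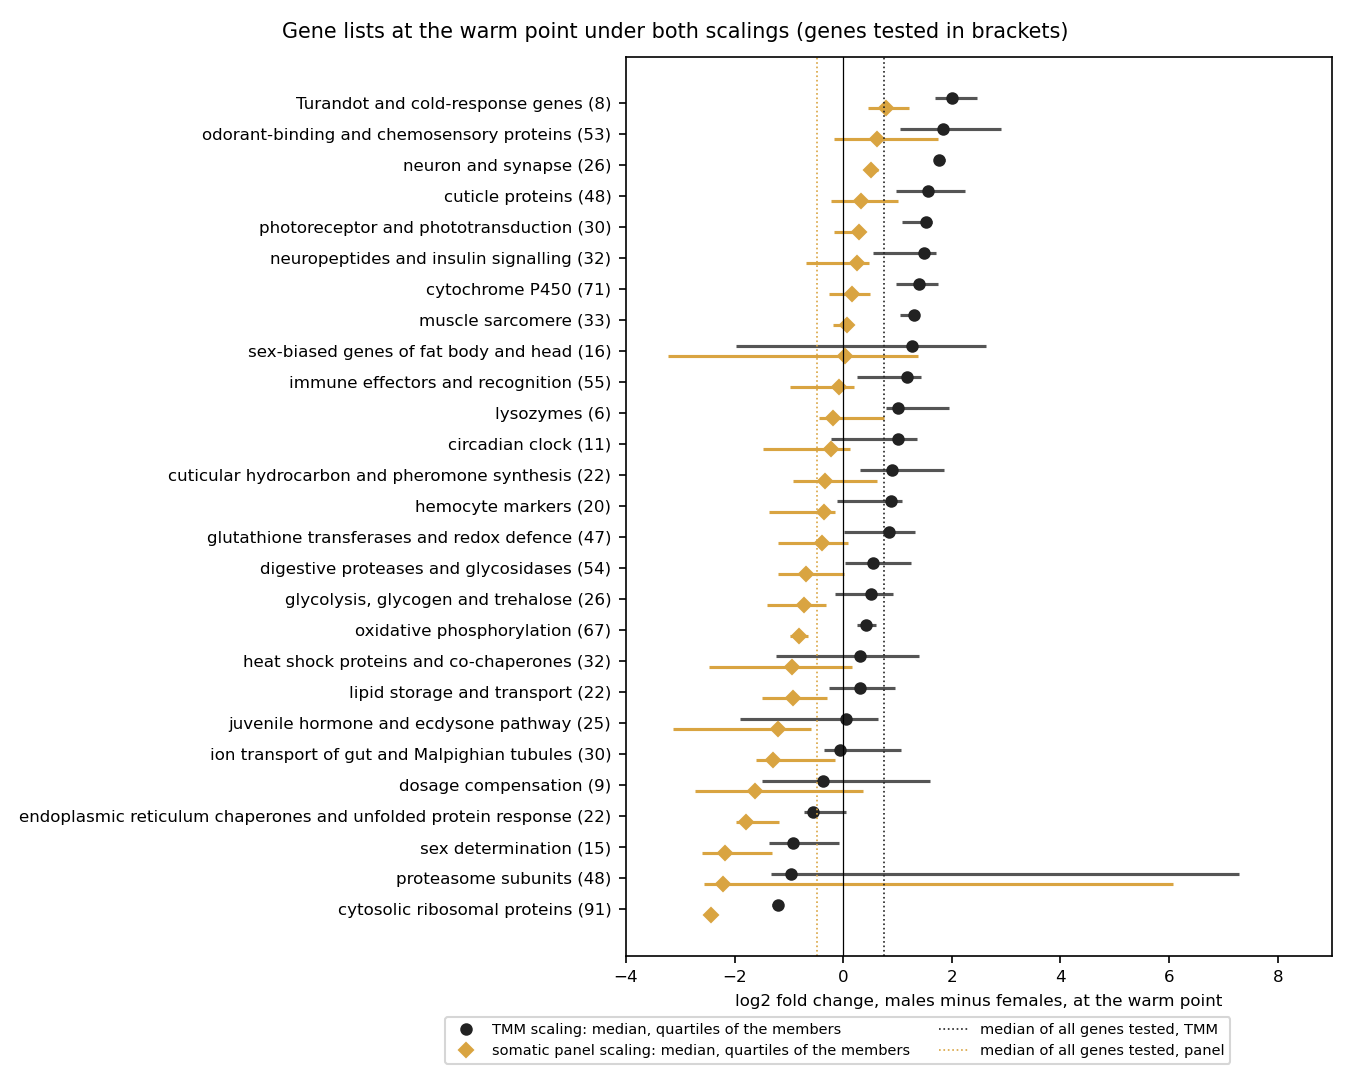
Median log2 difference of males over females (point) and quartiles (bar) of each of 27 somatic gene lists at the warm point, with TMM scaling and with the somatic panel. Dotted lines mark the median of all 15550 genes, 0.75 with TMM and -0.49 with the panel, and the shift of -1.23 between them carries the medians of the lists from immune effectors down to the juvenile hormone and ecdysone pathway across 0.

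Hormone genes of the nervous system and gut gave 25 of 32 higher in males and 4 in females (median 1.49), and 14 and 9 with the panel. The relaxin-like Ilp8, known from the ovarian follicle in adults, had 1.05, 1.28 and 2.16 CPM in males and 83.5, 110 and 129 CPM in females (-6.25 ± 0.16). The insulin-like peptide Ilp2 had 9.33, 11.3 and 13.1 CPM in males and 2.45, 3.07 and 5.02 CPM in females (1.70 ± 0.14, and 0.46 with the panel). Ilp5 had 1.49, 2.58 and 3.70 CPM in males and 0.439, 0.962 and 1.18 CPM in females (1.58 ± 0.22; 0.36 with the panel, adjusted p = 0.154). The receptor InR was lower in males, with 14.8, 32.6 and 57.1 CPM in males and 67.3, 77.4 and 87.9 CPM in females (-1.24 ± 0.15). The nutrient peptide CCHa2 had 107, 226 and 323 CPM in males and 45.9, 56.3 and 72.0 CPM in females (1.92 ± 0.15, and 0.68 with the panel). The myosuppressin gene Ms had 20.1, 24.4 and 26.8 CPM in males and 4.92, 5.4 and 7.30 CPM in females (2.08 ± 0.09). The metabolic hormone Akh had 11.2, 17.6 and 19.5 CPM in males and 3.75, 4.98 and 6.07 CPM in females (1.71 ± 0.11, and 0.48 with the panel).

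Partners in the circadian clock differed in sign. Of the 11 clock genes 7 were higher in males and 4 in females (median 1.0), and 3 and 7 with the panel. Clk and cyc encode the partners of the activating complex: Clk had 29.9, 42.2 and 50.4 CPM in males and 8.84, 9.74 and 12.7 CPM in females (2.08 ± 0.10, and 0.84 with the panel), while cyc had 20.6, 22.2 and 23.1 CPM in males and 95.3, 103 and 119 CPM in females (-2.24 ± 0.04). The kinase gene dco (doubletime) had 32, 40.0 and 88.2 CPM in males and 182, 396 and 424 CPM in females (-3.06 ± 0.21). Of the repressors, tim was higher in males with both scalings (1.44 ± 0.07 with TMM, 0.20 with the panel), whereas per, at 1.0 ± 0.07 with TMM, was below 0 with the panel. The hour of sampling is not given in the labels used here.

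Odorant-binding proteins, which carry small molecules in the antennae and elsewhere, gave 40 of 53 genes higher in males and 3 in females (median 1.84), and 26 and 7 with the panel. The 3 with the largest difference were Obp51a (274, 313 and 407 CPM in males; 0.107, 0.197 and 0.658 CPM in females), Obp56i (8.25, 11.4 and 13.3 CPM in males; 0, 0 and 0.0543 CPM in females) and Obp22a (19.1, 24.5 and 34.5 CPM in males; 0, 0.0413 and 0.0952 CPM in females). All 3 are known as seminal fluid genes. Among cytochrome P450 genes 61 of 71 were higher in males and 6 in females (median 1.39), against 26 and 17 with the panel. Cyp6a19 had 1.16, 1.73 and 3.36 CPM in males and 440, 457 and 506 CPM in females (-7.92 ± 0.21). Cyp312a1 showed the reverse, with 142, 171 and 201 CPM in males and 0.582, 0.948 and 1.51 CPM in females (7.38 ± 0.19). Among the P450 genes of ecdysone synthesis, spo had 0.0534, 0.159 and 0.33 CPM in males and 4.16, 6.04 and 8.22 CPM in females (-5.15 ± 0.35), a gene known from the follicle cells of the ovary.

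Detoxification and cuticle genes followed the general shift with a few exceptions. Of 47 glutathione transferase and redox genes, 30 were higher in males and 10 in females (median 0.85), and 7 and 24 with the panel. The peroxiredoxin gene Prx6c had 28.4, 37.3 and 45.5 CPM in males and 4.86, 7.54 and 12.0 CPM in females (2.27 ± 0.18, and 1.04 with the panel). Sod3, a secreted superoxide dismutase, had 52.9, 59.3 and 70.6 CPM in males and 238, 286 and 314 CPM in females (-2.22 ± 0.07). For cuticle, 37 of 48 genes were higher in males and 2 in females (median 1.56), and 18 and 5 with the panel. Cpr56F was the most distinct of the named ones, at 3.86, 5.49 and 7.33 CPM in males and 0.0805, 0.142 and 0.26 CPM in females (5.17 ± 0.20).

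Digestive and renal genes showed large single differences within mixed lists. Of 54 digestive enzymes 31 were higher in males and 7 in females (median 0.55), but 6 and 32 with the panel. The maltase gene Mal-B2 had 299, 370 and 1119.9 CPM in males and 67.0, 101 and 119 CPM in females (2.22 ± 0.23, and 1.0 with the panel), and the lysosomal mannosidase genes LManIV and LManV were higher in males by 2.23 ± 0.41 and 1.92 ± 0.21. Of 30 ion transport and tubule genes 12 were higher in males and 15 in females (median -0.06), and 6 and 21 with the panel. The water channel gene Prip had 34.0, 36.3 and 40.8 CPM in males and 252, 264 and 278 CPM in females (-2.82 ± 0.04), while the sodium pump subunit nrv2 had 166, 224 and 262 CPM in males and 39.7, 48.5 and 57.9 CPM in females (2.17 ± 0.04, and 0.94 with the panel). The tubule gene Uro, urate oxidase, had 52.8, 78.3 and 236 CPM in males and 17.9, 21.5 and 36.5 CPM in females (1.94 ± 0.23, and 0.71 with the panel).

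Lists of core metabolism had medians below the all-gene median of 0.75 with TMM. Oxidative phosphorylation had 56 of 67 genes higher in males and 4 in females, at a median of 0.41, and with the panel all 67 were higher in females; SdhB, a subunit of complex II, had 464, 510 and 636 CPM in males and 236, 277 and 328 CPM in females, with a difference of 0.90 ± 0.04 that was -0.34 with the panel. In glycolysis 16 of 26 were higher in males and 7 in females (median 0.51), and 3 and 21 with the panel. The gluconeogenic gene Pepck1 had 12.7, 20.9 and 33.0 CPM in males and 1.02, 3.59 and 17.23 CPM in females (2.49 ± 0.36, and 1.28 with the panel). Ldh, lactate dehydrogenase, had 41.2, 50.8 and 62.6 CPM in males and 9.58, 12.8 and 17.19 CPM in females (1.92 ± 0.12, and 0.69 with the panel). The enolase gene Eno split within the sexes, at 135, 172 and 1283 CPM in males and 61.8, 1282 and 1433 CPM in females: male 2 was at 1283 CPM, and females 1 and 8 were at 84.8 and 61.8 CPM, so its difference of -1.90 ± 0.66 (adjusted p = 0.012) rests on a division that does not follow sex alone. Lipid genes gave 13 of 22 higher in males and 7 in females (median 0.31), and 1 and 17 with the panel; Agpat1, of phospholipid synthesis, was lower in males (-1.95 ± 0.10).

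Most genes of growth machinery were lower in males with TMM, a direction that the panel cannot turn, and the part of the ovary in this was not tested. Of 91 ribosomal protein genes, 83 were higher in females and 7 in males (median -1.21), and 84 and 7 with the panel. The 7 include RpL10Aa, with 40.7, 45.9 and 55.5 CPM in males and 0, 0.0733 and 0.171 CPM in females, RpL22-like, with 17.6, 20.7 and 26.3 CPM in males and 0, 0.042 and 0.315 CPM in females, and RpS28-like, with 5.70, 7.44 and 11.5 CPM in males and no count in any female. Proteasome genes divided by paralog: 33 of 48 were higher in females and 15 in males, with the same counts under the panel. Prosbeta5R1 had 31.0, 37.0 and 47.0 CPM in males, Prosbeta2R1 had 12.4, 14.51 and 18.7 CPM and Rpn12R had 24.7, 28.7 and 36.8 CPM, against at most 0.0546 CPM in any female; such copies are known from the testis. Juvenile hormone and ecdysone genes gave 10 of 25 higher in males and 12 in females, and 2 and 20 with the panel. The ecdysone-induced transporter E23 had 11, 13.3 and 14.4 CPM in males and 109, 124 and 137 CPM in females (-3.24 ± 0.06). The nuclear receptor ftz-f1 had 30.6, 50.4 and 59.2 CPM in males and 227, 243 and 259 CPM in females (-2.33 ± 0.09).

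To look past gonads and glands without choosing tissues, genes were kept whose mean CPM in the 16 larval libraries was at least 0.5 of the higher of both adult sexes and which are in no reproductive list. Of these 7390 larva-expressed genes, 3288 were higher in males (44.5%) and 3120 in females (42.2%), at a median of 0.11, and with the panel 1194 and 4783, at a median of -1.12. The balance depends on the ratio: at a larval ratio of 1, 2037 of 3685 genes were higher in males (55.3%) and 959 in females (26%), at a median of 0.62. The genes most female in this set included HmgD and Df31, chromatin proteins that are abundant in the egg: HmgD (FBgn0004362, chromosome 2R) had 25.6, 29.8 and 35.2 CPM in males and 815, 856 and 917 CPM in females (-4.84 ± 0.07). Df31 had 85.6, 90.5 and 106 CPM in males and 1875, 1922 and 2091 CPM in females (-4.40 ± 0.05). CBP had 1.47, 2.52 and 3.89 CPM in males and 149, 160 and 182 CPM in females (-6.02 ± 0.19). CG4586 had 2.25, 3.45 and 5.76 CPM in males and 119, 131 and 156 CPM in females (-5.17 ± 0.14). In CG43954 the males did not behave as 1 group: males 1 and 2 had 22.4 and 19.8 CPM and the male median was 0.107 CPM, against 48.3, 60.2 and 73.0 CPM in females. On the male side the 10 genes were close to 0 in females, CG42847 among them with 41.1, 50.0 and 68.6 CPM in males, and cocoon with 15, 18.5 and 20.8 CPM in males. Larvae hold germ cells too, so this set is not free of germline transcripts.

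X-linked genes were lower in males relative to autosomal ones. Over all genes tested the median log2 difference was 0.02 for 2379 X-linked genes and 0.89 for 12923 autosomal genes, a gap of -0.87. Among larva-expressed genes the gap was smaller, at -0.32, with medians of -0.15 for 1176 X-linked genes and 0.17 for 6074 autosomal genes. It was -0.32 with the panel as well, since a scaling moves both alike. These medians run over genes of the same 16 libraries and carry no test.

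**Figure D4:**
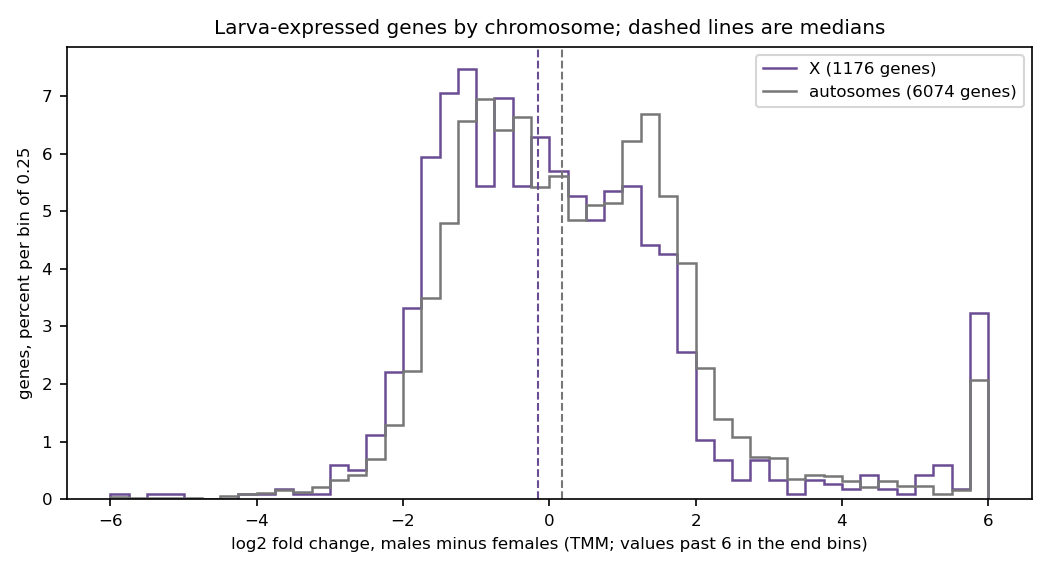
Distribution of the log2 difference of males over females at the warm point for 1176 X-linked and 6074 autosomal larva-expressed genes, as the share of genes in each bin, with TMM scaling. Dashed lines mark the medians, -0.15 for X-linked and 0.17 for autosomal genes.

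Whether the sex difference of fluctuating flies at 27 °C differed from that of flies held at 19 °C was tested in a fit of all 64 adult libraries (16058 genes). The measure was a difference of sex effects, the log2 sex difference of fluctuating flies minus that of constant flies at the same sampling point. Fluctuating flies had also lived through the cycles before. Temperature at sampling and this history cannot be told apart in this comparison. This difference of sex effects is signed. For a gene higher in females in both conditions, a higher value means a narrower gap between the sexes. The difference was higher in 1029 genes (6.41%) and lower in 826 (5.14%), at a median of 0.05. With the panel the counts were 165 (1.03%) and 1597 (9.95%) at a median of -0.14, so the balance of directions depends on the scaling. The levels in the next paragraphs carry the scaling of that fit and differ slightly from those above.

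The sex difference of heat shock genes differed between the regimes in both directions, with 8 of 32 differences higher and 6 lower, and 3 and 9 with the panel. Hsp70Aa had 19.0, 37.6 and 43.5 CPM in fluctuating males and 57.6, 72.5 and 96.2 CPM in fluctuating females at the high point, against 3.16, 4.28 and 4.81 CPM in constant males and 39.0, 43.6 and 56.8 CPM in constant females. Males of the warm point were thus far above constant males, and females moved less. The difference of sex effects was 2.21 ± 0.23 (adjusted p = 1.4e-09) for Hsp70Aa and 2.16 ± 0.22 for Hsp70Ab, and 2.0 and 1.95 with the panel. For Hsp68 the females moved more: it had 42.8, 48.8 and 57.3 CPM in fluctuating males and 10.6, 13.9 and 17.5 CPM in fluctuating females, against 41.4, 46.3 and 54.9 CPM in constant males and 2.73, 3.77 and 4.82 CPM in constant females, a difference of sex effects of -1.75 ± 0.15 (adjusted p = 1.79e-11). Hsp83 had 1326 ± 106 CPM in fluctuating males and 3418 ± 107 CPM in fluctuating females, against 905 ± 145 CPM in constant males and 3431 ± 190 CPM in constant females (SD, n = 8 each). Its difference of 0.56 ± 0.14 (adjusted p = 0.00487) lost its call with the panel (0.37, adjusted p = 0.22). The co-chaperone CG1416 had 91.1 ± 7.93 CPM in fluctuating males and 207 ± 6.21 CPM in fluctuating females, against 45.3 ± 3.68 CPM in constant males and 163 ± 7.98 CPM in constant females, and passed with both (0.66 ± 0.08 and 0.46).

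Some antimicrobial peptide genes differed in the opposite direction to Hsp70Aa. Among the 56 immune genes tested in this fit, 3 differences were higher and 11 lower, and none and 12 with the panel. Dro had 2.18, 17.23 and 194 CPM in fluctuating males and 1.13, 3.47 and 110 CPM in fluctuating females, against 0.665, 13.4 and 163 CPM in constant males and 0.497, 1.36 and 2.26 CPM in constant females (-4.82 ± 1.32, adjusted p = 0.0113). High values above those of all constant females thus occurred among fluctuating females in some libraries only. The calls for Dro and DptA (-4.74 ± 1.34, adjusted p = 0.0145) were lost when constant male 1, fluctuating female 1 or fluctuating female 6 was left out, and that for Mtk (-4.08 ± 1.09) without the first or the second of these. CecA1 had 19.0, 25.6 and 35.1 CPM in fluctuating males and 0.0544, 0.148 and 1.6 CPM in fluctuating females, against 11.1, 21.4 and 30.5 CPM in constant males and 0, 0.049 and 0.275 CPM in constant females (-2.74 ± 0.71, adjusted p = 0.00682). The stress gene TotA was the reverse, with 102, 126 and 498 CPM in fluctuating males and 13.4, 23.5 and 46 CPM in fluctuating females, against 48.6, 81.1 and 138 CPM in constant males and 12.2, 41.1 and 156 CPM in constant females. Its difference of 2.03 ± 0.57 (adjusted p = 0.0141) was lost without fluctuating male 5. With the replicate number as a block, the calls for Dro, DptA, Mtk, CecA1 and TotA were lost (adjusted p = 0.124 to 0.641).

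Of 32 neuropeptide and insulin genes 4 differences between the regimes were higher and none lower (1 and 3 with the panel), Ilp5 and Ilp8 among them. Of 16 sex-biased genes of fat body and head 3 were higher and none lower (2 and none with the panel), Lsp1alpha, sxe2 and to. Ilp5 had 1.52, 2.61 and 3.79 CPM in fluctuating males and 0.435, 0.949 and 1.17 CPM in fluctuating females, against 0.217, 1.44 and 2.29 CPM in constant males and 0.733, 1.21 and 1.80 CPM in constant females. The sexes were apart at the warm point and overlapped at constant temperature (1.48 ± 0.33, adjusted p = 0.00206). Lsp1alpha had 3.75, 6.25 and 19.99 CPM in fluctuating males and 0, 0.108 and 1.09 CPM in fluctuating females, against 2.52, 3.69 and 12.5 CPM in constant males and 0, 2.17 and 4.13 CPM in constant females (3.44 ± 0.74, adjusted p = 0.00112). With the replicate number as a block, the calls for Ilp5, Ilp8, Lsp1alpha and to were lost (adjusted p = 0.113 to 0.192). The male-biased sxe2 had 66.9, 73.6 and 87.4 CPM in fluctuating males and 2.29, 3.17 and 3.8 CPM in fluctuating females, against 32.5, 52.4 and 71.7 CPM in constant males and 2.52, 3.55 and 4.19 CPM in constant females (0.66 ± 0.15, adjusted p = 0.00249). Among ribosomal protein genes 36 of 91 differences were higher and none lower, but 1 and none with the panel. In oxidative phosphorylation 23 of 67 were higher and none lower, against none and 6 with the panel, so neither group has a direction that holds. The 10 largest differences outside reproductive lists included Dro, DptA and CG43739, and others such as Vha14-2 and CG30192 that were near 0 in females of both regimes. Vha14-2 had at most 0.108 CPM in fluctuating females and 0 in all constant females, with male medians of 19.4 and 25.8 CPM.

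Against the cool point the signed log2 sex difference of fluctuating flies was higher in 1301 genes (8.1%) and lower in 826 (5.14%), at a median of 0.01, and with the panel in 1287 (8.01%) and 291 (1.81%), at a median of 0.13. The warm libraries are the same as in the comparison with constant flies, so the results of both are not independent. The warm and cool points are also different times of the cycle. Temperature and time of sampling cannot be told apart in this comparison. Among chaperones, 11 of 32 heat shock differences were higher and 1 lower (11 and none with the panel), and 9 of 22 ER differences were higher and none lower (6 and none with the panel). CG1416 had 91.1 ± 7.93 CPM in warm males and 207 ± 6.21 CPM in warm females, against 34.9 ± 1.70 CPM in cool males and 165 ± 8.07 CPM in cool females (1.05 ± 0.08, adjusted p = 4.35e-14). For Hsp83 the cool levels were 659 ± 90.7 CPM in males and 2902 ± 199 CPM in females, and the difference of sex effects was 0.78 ± 0.14 (adjusted p = 5.03e-05). Hsp70Aa had 11.6, 14.1 and 21.4 CPM in cool males and 39.6, 70.6 and 83.3 CPM in cool females (0.99 ± 0.22, adjusted p = 0.00122). In the ER, Sil1 had 10.9, 12.4 and 14.2 CPM in warm males and 34.8, 37.5 and 41.8 CPM in warm females, against 6.78, 8.18 and 9.75 CPM in cool males and 31.0, 36.3 and 41.8 CPM in cool females (0.55 ± 0.11, adjusted p = 0.00014).

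**Figure D5:**
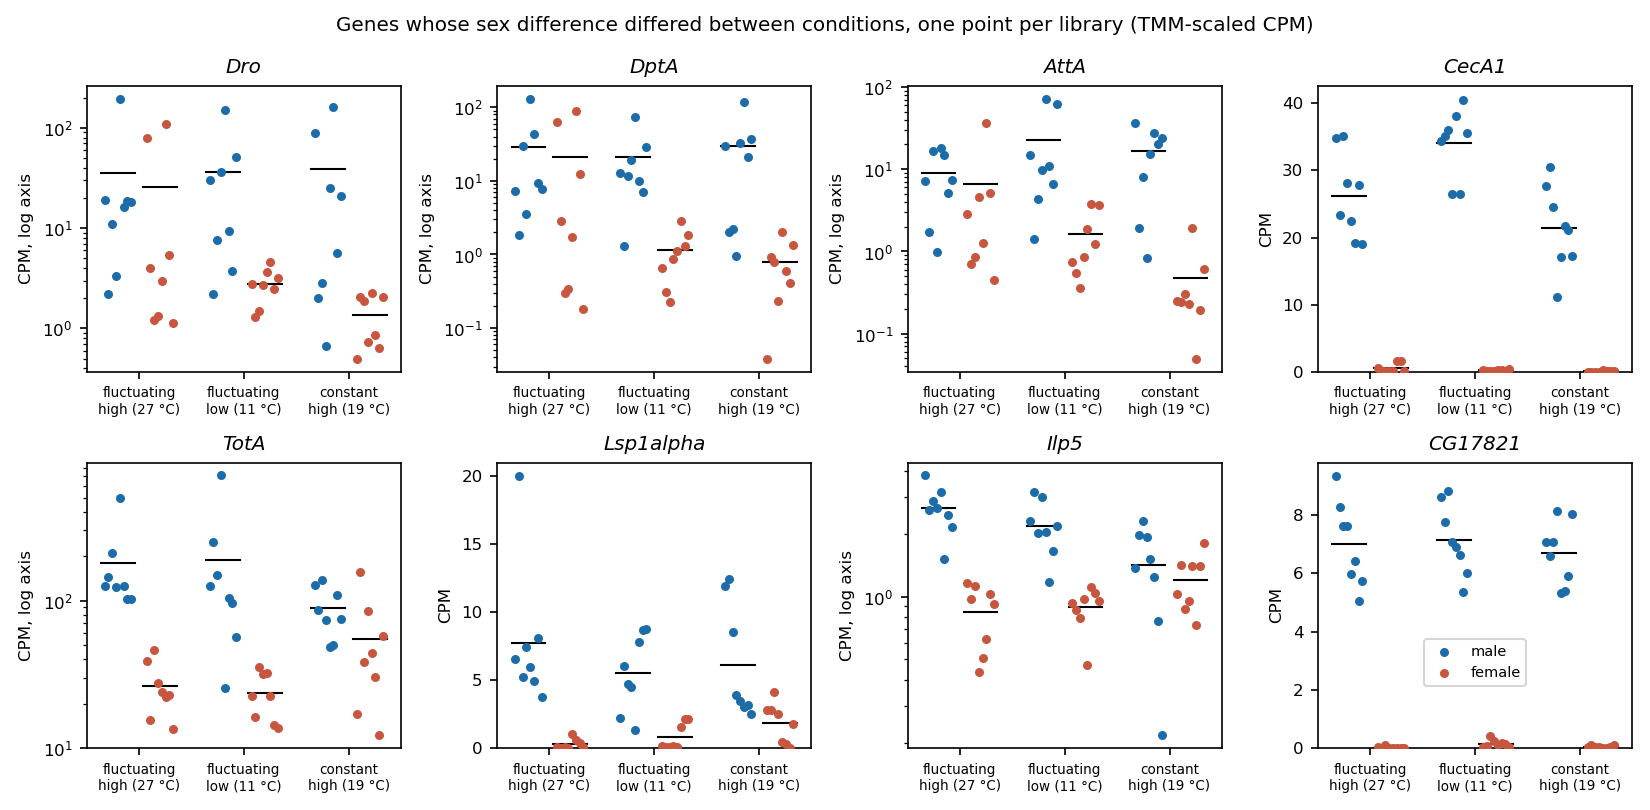
Levels of 8 genes whose sex difference was tested between conditions, in males (left of each pair) and females at the fluctuating high point, the fluctuating low point and the constant high point. Each point is 1 of 8 libraries, the y axis is CPM, on a log axis except for CecA1, Lsp1alpha and CG17821, which have a linear one, and lines are means; high Dro, DptA and AttA values in females occur in some libraries of the fluctuating high point.

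Of 16 sex-biased genes of fat body and head, 2 differences were higher against the cool point and none lower with either scaling, those of sxe2 and Obp99a, which were named after their values were seen. For sxe2 the cool levels were 39.3, 55.5 and 65.4 CPM in males and 3.76, 4.79 and 5.50 CPM in females, below and above the warm levels, and the difference was 1.05 ± 0.15 (adjusted p = 9.37e-07). Obp99a had 39.3, 46.2 and 63.2 CPM in warm males and 214, 309 and 369 CPM in warm females, against 40.9, 44.6 and 52.3 CPM in cool males and 355, 517 and 763 CPM in cool females (0.88 ± 0.24, adjusted p = 0.00773). The elongase-family gene CG17821 was 0 in most warm females and 0.0447, 0.134 and 0.41 CPM in cool females, with male medians of 7.03 and 6.99 CPM (3.33 ± 0.70, adjusted p = 0.000565). LysE had 25.5, 29.3 and 37.3 CPM in warm males and 0.653, 1.65 and 3.11 CPM in warm females, against 19.9, 27.6 and 32 CPM in cool males and 0.161, 0.428 and 0.909 CPM in cool females (-1.65 ± 0.39, adjusted p = 0.00199). The dopamine gene ple had 38.0, 55.9 and 82.9 CPM in warm males and 11.6, 12.6 and 17.1 CPM in warm females, against 31.1, 35.2 and 58.7 CPM in cool males and 15, 16.9 and 25.1 CPM in cool females (0.88 ± 0.19, adjusted p = 0.000709). Several of the largest differences by size were again in genes near 0 in females: CG42818 had at most 0.0362 CPM in warm females and 0.25, 0.276 and 0.626 CPM in cool females, with male medians of 10.3 and 8.44 CPM. For tra the gap was narrower at the warm point, with 7.63, 8.51 and 10.1 CPM in warm males and 11.1, 11.9 and 14.8 CPM in warm females, against 5.0, 5.4 and 6.16 CPM in cool males and 9.05, 10.4 and 11.1 CPM in cool females (0.37 ± 0.08, adjusted p = 0.0013). The clock kinase dco had 32.8, 40.9 and 89.5 CPM in warm males and 178, 391 and 416 CPM in warm females, against 48.7, 95.2 and 103 CPM in cool males and 162, 188 and 398 CPM in cool females (-1.37 ± 0.35, adjusted p = 0.00424). The maternal HmgD differed by -1.01 ± 0.23 (adjusted p = 0.00116) with 26, 30.3 and 36.0 CPM in warm males and 56.3, 67.7 and 77.9 CPM in cool males.

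The number of sex differences that changed with cycle number depends on the test. Of the 15550 genes, the difference at 12 cycles minus that at 6 cycles was higher in 20 (0.129%) and lower in 22 (0.141%), and these counts ran from 8 to 88 and from 6 to 86 when single libraries were left out, highest without male 1. DESeq2 gave 289 and 330, and the panel 15 and 135. With the replicate number as a block edgeR gave 0 and 0 (lowest adjusted p = 0.0966), so no gene named here kept its call. Libraries of 12 cycles are also the later sampling, so cycle number and age cannot be told apart. The gut mucin gene Muc68E had 109 CPM in males of 12 cycles and 27.1 CPM in males of 6 cycles, against 18.2 and 18 CPM in females (2.0 ± 0.29, adjusted p = 0.0119). CG42397 had 261 CPM in males of 12 cycles and 44.9 CPM in males of 6 cycles, against 28.6 and 35.8 CPM in females (2.87 ± 0.45, adjusted p = 0.0163), and lost its call without male 4. CG31091 had 42.1 and 19.3 CPM in males of 12 and 6 cycles, against 3.32 and 7.62 CPM in females (2.32 ± 0.41, adjusted p = 0.0308), and lost its call in 6 of 16 fits that left out 1 library. For ple the males were lower at 12 cycles, at 41.2 CPM against 72.8 CPM at 6 cycles, with 14.4 and 12.6 CPM in females (-1.01 ± 0.16, adjusted p = 0.0203), a call lost in 4 of 16 such fits. These group means cover 4 libraries each. The largest differences by size, CG17564, CG12589, CG17030 and CG34130, were in genes with no count in females of 12 cycles and at most 0.097 CPM on average at 6 cycles.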

How the data were processed

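RNA of whole flies was enriched with oligo(dT) beads and sequenced, as the labels' protocols state. Per the submitters' processing notes, FastQC, Trimmomatic, HISAT2 (genome BDGP6) and StringTie were used, with no versions given there. Per gene, the deposited table holds estimated counts without normalization for 17697 identifiers, of which 17559 matched the BDGP6.54 annotation (release 115), whose 1-based coordinates are printed. They were rounded to whole numbers. Of 36365 values from 1 to 24 in these libraries, 37.6% are multiples of 4, against 25% if spread evenly, so a fragment appears to be worth about 4 counts and the depth about 0.25 of the totals. The labels give no strand, so a gene and its antisense partner cannot be told apart, and near-identical copies may share reads. Over 24 pairs of libraries of 1 group, none was a repeat (lowest chi-squared per gene 44.9).

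Males were tested over females with the quasi-likelihood F-test of edgeR 4.0.16 in R 4.3.3, after TMM scaling and filterByExpr (minimum count 10), at a Benjamini-Hochberg adjusted p of 0.05 over all genes tested, with cycle number as a covariate. Differences of sex effects came from the 64 adult libraries with 16 groups, and those by cycle number from the 16 warm-point libraries. The SE is the absolute log2 difference divided by the root of F. Alternatives were DESeq2 1.42.0, other size factors, a panel of 89 muscle, neuron and photoreceptor genes, no filter and counts divided by 4. Single cycle numbers, a replicate block and leaving out each library were further ones. The fits were also run on simulated counts in which few genes were changed, in both directions alike. Most genes differ in the real data, so that simulation cannot test the choice of scaling. The comparison with the cool point was not simulated. P-values measure the spread between these samples.

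Named genes are a fixed set of sex, yolk and heat shock genes, the 3 called members of each somatic list with the largest difference and at least 5 CPM in 1 sex, 10 larva-expressed genes in each direction, and the 10 largest differences of sex effects per comparison. A further 19 genes were chosen after their values were seen: Hsp70Ab, Hsp70Ba, Hsp70Bbb, Hsp70Bc, Hsc70-1, CG1416, AttA, Mtk, Drs, Lsp1alpha, sxe2, Obp99a, Cyp4g1, Desat1, Ilp2, Ilp5, InR, tim and per. Members, lists and tests were chosen with earlier results of these data known. Of 1195 list entries 14 were not found.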

Additional observations from a re-analysis of the deposited data

Results flagged for a closer look

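Within a sex, 34 of 281 groups of 8 libraries held a highest or lowest library set apart from the other 7 by Dixon's criterion, which chance gives in about 1 in 20 groups. Male replicate 1 gave 11 of them. It was the lowest male for Sxl (45.2 CPM), fru (28.2 CPM), msl-1 (20.5 CPM), PEK (38.0 CPM), Sh (73.1 CPM), Clk (29.9 CPM) and ftz-f1 (30.6 CPM), and the highest for lncRNA:roX2 (13.3 CPM), snf (27.6 CPM), Act87E (397 CPM) and CG31924 (27.2 CPM). Male replicate 5 was the highest for TotA (485 CPM), Dro (189 CPM), DptA (126 CPM) and Mtk (68.4 CPM). Male replicate 6 was the highest for Hsp70Bb (35.0 CPM), Hsp70Bbb (25.2 CPM), Fst (183 CPM), Mal-B2 (1120 CPM), Desat1 (3650 CPM) and dco (88.2 CPM), and the lowest for TotX (7.47 CPM). Further single males were replicate 4 for Hsp83 (1535 CPM) and replicate 2 for Eno (1283 CPM) and Lsp1alpha (19.7 CPM). Among females, replicate 5 was the highest for Obp99b (42.5 CPM), BomS6 (30.4 CPM) and Pepck1 (17.23 CPM) and the lowest for dco (182 CPM), replicate 8 the highest for tra (15.1 CPM) and Hsp22 (101 CPM), replicate 6 the highest for Clk (12.7 CPM) and AttA (37.2 CPM), and replicate 7 the lowest for ix (15.7 CPM).

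The sex effect of 40 named genes differed between fluctuating and constant flies at the high point, by the tested, signed difference of log2 sex effects. Higher at the warm point were Hsp70Aa (2.21), Hsp70Ab (2.16), Hsp70Ba (1.05), CG1416 (0.66), Hsp83 (0.56), TotA (2.03), Drsl5 (0.69), Lsp1alpha (3.44), sxe2 (0.66), Ilp5 (1.48), Ilp8 (0.54), Sh (0.80), dsx (0.37) and to (0.38). Lower were Hsp68 (-1.75), Hsp23 (-0.59), DnaJ-1 (-0.33), Hsf (-0.24), PEK (-0.21), CecA1 (-2.74), Dro (-4.82), DptA (-4.74), AttA (-4.43), Mtk (-4.08), LManIV (-1.95) and Flad2 (-1.61). In the following the fitted value depends on how near-zero females are handled: RpS28-like (3.74), Prosbeta5R1 (3.24), Prosbeta2R1 (2.60), CG42847 (2.41), CG31609 (4.87), CG32199 (4.80), CG12917 (4.58) and CG15446 (4.00), and on the lower side Vha14-2 (-5.66), CG30192 (-5.19), CG44314 (-4.90), tplus3b (-4.76), CG30447 (-4.59) and CecA1 (-2.74). For CG43739 (-5.60), single libraries were far from the rest, fluctuating females 4 and 6 at 26.3 and 16.4 CPM and 1 constant male at 66.4 CPM. With the somatic panel dsx, to, Hsp83, Drsl5, Ilp8, Hsp70Ba, Prosbeta5R1 and Prosbeta2R1 lost the call (adjusted p = 0.0703 to 0.369). With the replicate number as a block most of the 40 lost it. Among them were CecA1, TotA, AttA, Dro, DptA, Mtk, Lsp1alpha, Ilp5, Sh and LManIV (adjusted p = 0.0858 to 0.641).

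Between the warm and the cool point of fluctuating flies, 41 named genes differed in the signed log2 sex effect. Higher at the warm point were Hsp70Aa (0.99), Hsp70Ab (1.0), Hsp83 (0.78), CG1416 (1.05), DnaJ-1 (0.28), Sil1 (0.55), sxe2 (1.05), Obp99a (0.88), tra (0.37), ix (0.38), ple (0.88) and Ilp8 (0.60). Lower were Hsp68 (-0.51), Sxl (-0.36), fru (-0.35), LysE (-1.65), dco (-1.37), ftz-f1 (-0.54), InR (-0.58), HmgD (-1.01), CG30403 (-1.31), Dro (-3.68), DptA (-4.17) and Mtk (-3.06). With most females under 1 CPM they were att-ORFB (9.62), CG17821 (3.33), CG42818 (6.78), lncRNA:CR43489 (5.04), CG12917 (5.0), CG42559 (4.83), CG31924 (4.68), lncRNA:CR44852 (4.67), CG43231 (4.66), CG15446 (4.54), asRNA:CR43876 (4.54), CG32199 (4.43), Prosbeta5R1 (3.52), Bfc (1.97) and CG30447 (-2.92). For CG9826 (1.85) warm males and females overlapped, and CG43739 (-3.08) had the same high warm females as above. With the somatic panel Sxl, fru, Hsp68, ftz-f1, InR, Dro, Mtk, CG30447 and CG43739 lost the call (adjusted p = 0.0614 to 0.284). With the replicate number as a block Sxl, InR, Dro, DptA and Mtk lost it, among others (adjusted p = 0.139 to 0.61 for these).

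Between 12 and 6 cycles, 11 named genes differed: CG17564 (6.07), CG12589 (5.30), CG17030 (5.28) and CG34130 (4.80), which had no count in females of 12 cycles, CG42397 (2.87), CG9826 (2.51), CG31091 (2.32), Muc68E (2.0), ple (-1.01), Bfc (-1.72) and Flad2 (-1.94).

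Outside the comparisons, the constant low-point male library of replicate 2 held female transcripts: 4471 CPM of Yp1, 893 CPM of Vm26Aa and 49.2 CPM of vas before scaling, against highest values of 64.9, 4.17 and 5.48 CPM in the 31 other adult male libraries.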

How the results depend on the processing

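There were 7933 alternative values for 257 gene-and-comparison results, each called in its main fit. Of these values, 7516 kept their direction and their side of the threshold, 404 kept the direction and lost the call, and 13 turned. Most came from fits that left out 1 library and shared nearly all of the data. The pooled counts therefore say little about the panel or the replicate block. At the warm point, the 8524 genes higher in males became 5431 with the somatic panel, and the same 5431 hold with both scalings. The other fits gave 7694 (6 cycles only) to 8960 (63 libraries, leaving out the constant low-point male with yolk transcripts). Of the 8524, 7130 were higher in males at least 2-fold. Leaving out 1 library gave 8492 to 8566 genes higher in males and 5776 to 5842 higher in females. Single genes turned with the panel: fru (-0.41), Hsp70Bb (-0.56), Hsp70Bbb (-0.49), Hsp70Bc (-0.69), Hsp22 (-0.69), LysP (-0.48), SdhB (-0.34), SdhC (-0.39), ox (-0.39), Desat1 (-0.28), per (-0.24) and CG9826 (-0.008, and -0.053 with 6 cycles only). The panel's construction moves all genes alike; the cause of CG9826's turn with 6 cycles was not tested.

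Differences of sex effects were less stable in number. Against constant flies the panel gave 165 higher and 1597 lower, in place of 1029 and 826, and leaving out 1 of the 32 compared libraries gave 787 to 1026 and 736 to 926. A fit without the constant low-point male with yolk transcripts, which is in neither contrast, gave 1373 and 1080 here, and 1631 and 984 against the cool point. Against the cool point the panel gave 291 lower in place of 826, a fit of only the 32 compared libraries gave 2204 higher in place of 1301, and leaving out 1 of the 32 compared libraries gave 1191 to 1414 and 664 to 837. Between cycle numbers, where 20 were higher and 22 lower, DESeq2 gave 289 and 330, the panel gave 135 lower, no filter on low counts gave 6 lower, and leaving out 1 library gave 8 to 88 (lowest without male 4, highest without male 1) and 6 to 86. The causes were not tested.

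Among larva-expressed genes a larval ratio of 1 gave 2037 higher in males and 959 in females, the ratio of 0.25 gave 4811 higher in females, and the panel gave 1194 and 4783. With genes of at least 5 CPM the X gap was -0.59 over all genes and -0.22 over larva-expressed ones.

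Males and females share replicate numbers, but same-numbered libraries did not deviate together (correlations from -0.16 to 0.11, and 2 of 8 males closest to their own number), so a fit with the replicate number as a block served only as an alternative. It gave 8424 genes higher in males and 5741 in females, 311 and 267 differences against constant flies, 1500 and 470 against the cool point, and 0 and 0 between cycle numbers with edgeR, where 690 and 681 genes had an unadjusted p under 0.05.

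Calls lost by leaving out 1 library, beside those named with their genes above, include Prosbeta5R1, Prosbeta2R1, dsx, Hsp70Ba, PEK and CG15446 against constant flies (in 28, 27, 19, 16, 12 and 11 of 32 fits), CG43739, Sxl, Dro, Mtk, CG9826 and CG30447 against the cool point (24, 22, 20, 20, 16 and 11 of 32), and CG9826, Bfc, CG31091, ple and Flad2 between cycle numbers (8, 8, 6, 4 and 3 of 16). Depth limits genes near 0 the most, since about 4 counts stand for 1 fragment and the lowest levels printed rest on single fragments.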
